A study of Mus musculus with 60 samples.

Results

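The comparison described here is the last stage of a developmental time course of mouse microglia, the resident macrophages of the brain: postnatal day 60 (P60) after saline, set against P14. All columns whose titles name P60 with saline (7 titled F and 5 titled M) or P14 (10 titled F and 10 titled M) were taken, 32 of the 60 libraries of the series. The P60 group came from animals of strain background C57BL/6N labelled as treated with saline, and the P14 group from untreated animals of the same strain background. RNA extracted with Trizol was sequenced after poly(A) selection with a stranded kit, and the values are counts per transcript, of which 1 row per gene was used. The labels do not say how the cells were isolated, and do not tie each library to its own animal, so p-values measure the spread between libraries. Stage cannot be told apart from the saline treatment, which the P14 group did not receive.

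Microglia enter the brain as embryonic progenitors, divide in the young brain, and later settle as ramified cells that rarely divide. Their mature state is recognised by surface proteins such as P2ry12 and Tmem119, and depends on TGF-beta and on colony stimulating factor signals. Innate immune sensing by Toll-like receptors, interferon response genes and antigen presentation are parts of their programme that change with age and challenge.

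Total counts per library ran from 802016 to 3228801 at P60 and from 875895 to 3497454 at P14. The defining microglial transcripts were abundant in each of the 32 libraries, with P2ry12 between 3201 and 8338 CPM (counts scaled to a common library size) at P60 and between 2341 and 6037 CPM at P14. Xist was at or below 16.7 CPM in the M-titled libraries and at or above 1266 CPM in the F-titled ones, although the sex characteristic disagreed with the title for 2 of the 32. Libraries differed in their content of Ttr, the transthyretin transcript of choroid plexus epithelium, which took 0.0162% to 11.99% of counts at P60 (median 3.09%) and 0.0983% to 7.75% at P14 (median 1.74%). F-titled P60 library 5 and M-titled P14 library 1 held the least. The descriptions carry 3 dates for P14 and 3 for P60 saline with none in common, so that date and stage cannot be told apart and no value within a date could be computed. The first, middle and last dates held 6, 8 and 6 P14 libraries, and 2, 6 and 4 P60 libraries. Leaving out a date therefore also removes that many replicates. In these bulk samples, fewer cells of a type and less RNA per cell cannot be told apart.

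The step was broad. Of 13853 genes tested with the quasi-likelihood test of edgeR on the mean of both sexes, 6114 passed an adjusted p of 0.05 (44.1%), 2556 higher at P60 (18.5%) and 3558 lower (25.7%). Of the called genes, 629 rose and 1389 fell at least 2-fold, and 53 rose and 540 fell at least 4-fold. The median log2 fold change over all genes was -0.06 and the median standard error 0.18. In 79 genes (0.57%) every P60 library lay above every P14 library, and in 177 genes (1.28%) every P60 library lay below. Over the alternatives 38.7% to 51.1% of calls were higher, against 41.8% here, with the median of all genes between -0.08 and 0.02. More genes were higher than lower with the 32 libraries of both stages alone (3114 higher and 2981 lower), with a minimum of 10 counts in 10 libraries (2998 and 2893) and without F-titled P60 library 5 (3164 and 3094), while without the 5 libraries with over 4% of counts in Ttr 1562 were higher and 2428 lower. These 5 were F-titled P60 library 6, M-titled P60 libraries 1, 3 and 4 and F-titled P14 library 5. Of the M-titled P60 group only libraries 2 and 5 were then left. In every value without these libraries, Ttr content and the loss of replicates cannot be told apart. The shares of 18.5% higher and 25.7% lower are the background for each gene list.

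**Figure D1:**
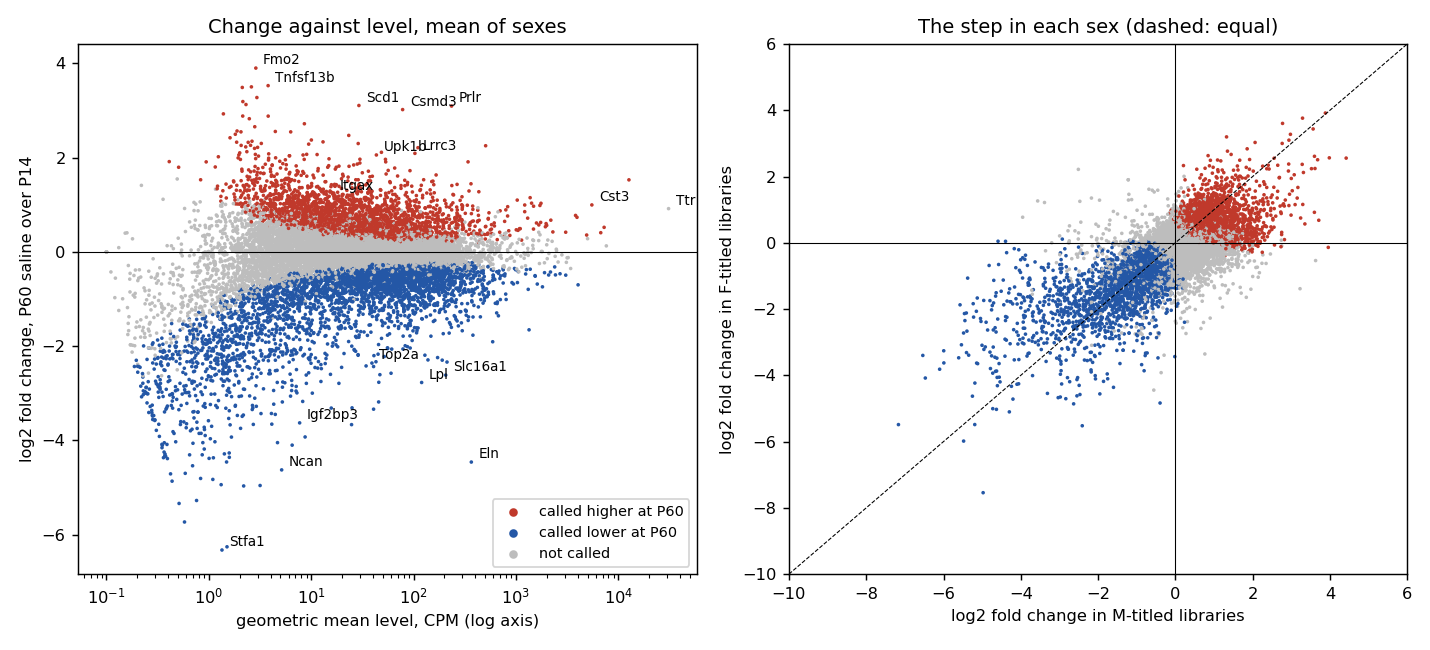
Left, log2 fold change of P60 saline over P14 (mean of the sexes) against the geometric mean level in CPM on a log axis, 1 point a gene, red where called higher and blue where called lower at P60. Right, the change in F-titled against that in M-titled libraries; the 540 genes that fell at least 4-fold form a longer tail than the 53 that rose as much.

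The sexes were compared in their own libraries. In M-titled libraries 4103 genes were called (29.6%), 1842 higher (13.3%) and 2261 lower (16.3%), and in F-titled libraries 3750 (27.1%), 1401 higher (10.1%) and 2349 lower (17%). Both sexes called 710 genes higher, 38.5% of those of the M-titled and 50.7% of those of the F-titled libraries, and 1366 genes lower, 60.4% and 58.2% of the same lists. A further 6 genes were called in both sexes with opposite signs. The difference between the sexes in the step itself (M-titled minus F-titled) passed the adjusted threshold for 0 genes in edgeR, with 1721 genes at an unadjusted p under 0.05 and a lowest adjusted p of 0.0634. DESeq2 called 73 and limma-voom 19 genes in that test. Leaving out F-titled P60 library 7, M-titled P60 library 2 or M-titled P60 library 5 gave 4, 5 and 4 calls.

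Csmd3, Lrrc3, Upk1b, Lrba, Ccng2 and Gcnt1 were higher at P60. Csmd3, a large membrane protein with CUB and sushi domains, ran from 117 to 324 CPM, median 225 CPM, in the P60 saline libraries, against 11.96 to 51.9 CPM, median 23.2 CPM, in the P14 libraries. Every P60 library lay above every P14 library (log2 fold change 3.02 ± 0.17 (SE), adjusted p = 3.33e-18). Lrrc3, a leucine-rich repeat membrane protein, ran from 122 to 334 CPM, median 217 CPM, in the P60 saline libraries, against 18.9 to 89.5 CPM, median 43.4 CPM, in the P14 libraries. Upk1b, a tetraspanin of the uroplakin family, ran from 54.5 to 145 CPM, median 92.96 CPM, in the P60 saline libraries, against 10.96 to 37.1 CPM, median 19.6 CPM, in the P14 libraries. Neither gene's groups overlapped, with log2 fold changes of 2.09 ± 0.17 for Lrrc3 and 2.06 ± 0.15 for Upk1b. Lrba, a BEACH-domain protein of vesicle traffic, ran from 217 to 308 CPM, median 260.3 CPM, in the P60 saline libraries, against 59.2 to 122 CPM, median 90.4 CPM, in the P14 libraries. Its groups did not overlap either, at a log2 fold change of 1.50 ± 0.10. Ccng2, a cyclin linked to cell cycle arrest, had a median of 137 CPM at P60 against 55.8 CPM at P14, and Gcnt1, a glycosyltransferase of mucin-type sugar chains, a median of 263 CPM at P60 against 82.5 CPM at P14. These 6 genes, with Tlr3 and Igtp below, are among the 12 rises of smallest p and were singled out after their values were seen.

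Csmd3, Lrrc3 and Upk1b were high in F-titled P60 library 5, the one with the least Ttr, at 324, 305 and 145 CPM. Tnfsf13b, the B cell survival factor BAFF, was close to the limit of detection at P14. It ran from 7.13 to 20.02 CPM, median 12.8 CPM, in the P60 saline libraries, against 0 to 3.00 CPM, median 1.01 CPM, in the P14 libraries. Every P60 library exceeded every P14 library (log2 fold change 3.53 ± 0.29 (SE), adjusted p = 3.66e-13). Fmo2, a flavin monooxygenase, had the largest log2 rise of genes averaging at least 10 CPM at either stage, at 3.90 ± 0.41, with a median of 8.53 CPM at P60 against 0.463 CPM at P14. Its 12 P60 libraries were not all above the P14 range, with 10 exceeding the highest P14 value. AW112010 and the zinc finger gene Zfp759 rose by 2.55 ± 0.26 log2 and 2.55 ± 0.28 log2, each without overlap between the groups.

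**Figure D2:**
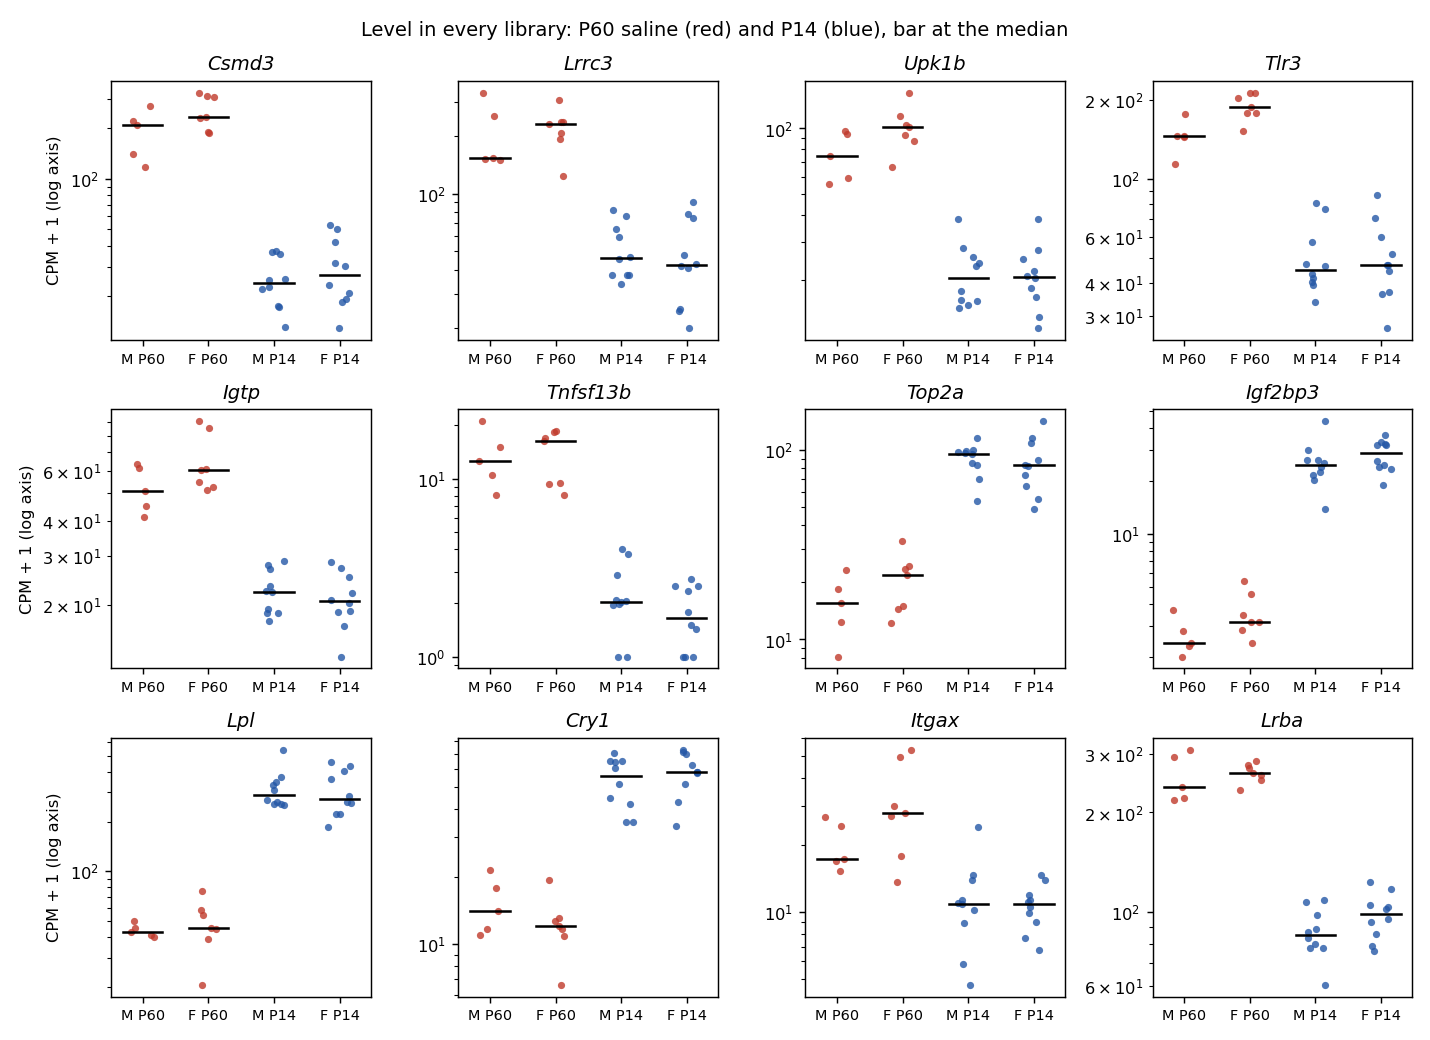
Level in CPM plus 1 (log axis) of 12 genes in each of the 32 libraries, P60 saline in red left of P14 in blue, with a bar at each group's median. Csmd3, Lrrc3, Upk1b, Tlr3, Igtp, Tnfsf13b and Lrba do not overlap between the stages, nor do Top2a, Igf2bp3, Lpl and Cry1, which are lower at P60; Itgax overlaps.

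Other large rises were in Prlr, Kl, Scd1, Itgb8, Pln and Tmprss11a, which were low in the P60 library with the least Ttr. Prlr, the prolactin receptor, ran from 3.57 to 1228 CPM, median 654 CPM, in the P60 saline libraries, against 1.97 to 200.3 CPM, median 70.3 CPM, in the P14 libraries. In F-titled P60 library 5 it stood at 3.57 CPM, within the P14 range, and 10 of the 12 P60 libraries lay above every P14 library (log2 fold change 3.09 ± 0.35 (SE), adjusted p = 2.87e-09). Kl, the FGF23 co-receptor klotho, ran from 8.33 to 2456 CPM, median 982 CPM, in the P60 saline libraries, against 14.3 to 486 CPM, median 212 CPM, in the P14 libraries, and was at 8.33 CPM in that library. Scd1, a stearoyl-CoA desaturase, had a median of 76.7 CPM at P60 against 9.08 CPM at P14, with 1.19 CPM in that library. Itgb8, Pln and Tmprss11a, also among the 10 largest rises, were at 1.19, 5.95 and 0 CPM there. The 5 genes Prlr, Scd1, Itgb8, Pln and Tmprss11a had log2 fold changes between 2.37 and 3.10. Ttr itself had a median of 31797 CPM at P60 against 19143 CPM at P14 and did not pass the test (log2 fold change 0.92 ± 0.46 (SE), adjusted p = 0.102). Kl is also a member of the choroid plexus list below. M-titled P14 library 1 (0.0983% Ttr) had 1.97 CPM of Prlr, 14.3 CPM of Kl and 3.95 CPM of Scd1. M-titled P14 library 8 (0.281%) had 7.41, 44.4 and 2.78 CPM. F-titled P60 library 6, with the most Ttr (11.99%), had 627 CPM of Prlr, 613 CPM of Kl and 65.9 CPM of Scd1, and M-titled P60 library 3 (7.26%) had 1228, 2456 and 206 CPM, against 200.3, 486 and 11.96 CPM in F-titled P14 library 5 (7.75%). The part of choroid plexus RNA in these rises was not tested.

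**Figure D3:**
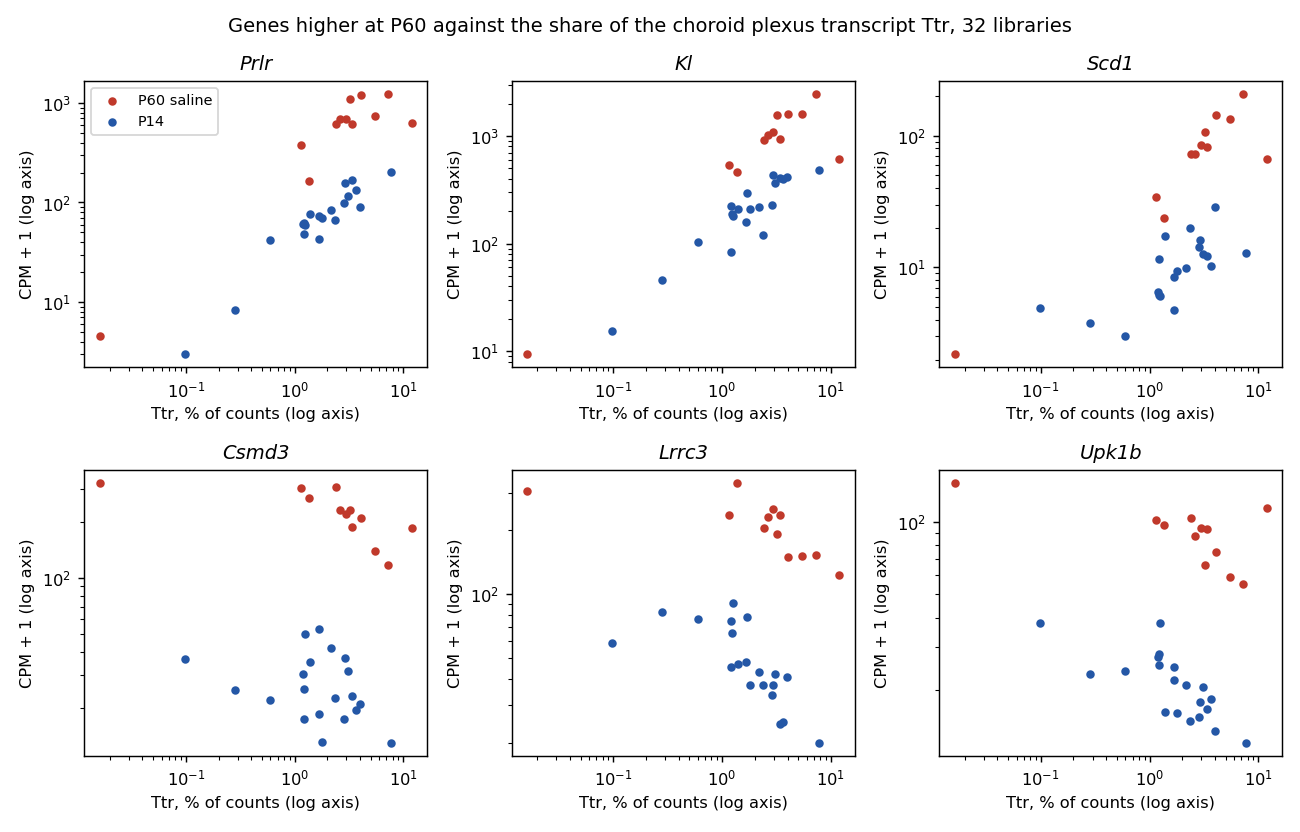
Level in CPM plus 1 against the share of counts in Ttr, both on log axes, for 6 genes in 32 libraries, P60 saline in red and P14 in blue. Prlr, Kl and Scd1 are near their lowest values in the P60 library with 0.0162% Ttr, while Csmd3, Lrrc3 and Upk1b are high there, at 324, 305 and 145 CPM.

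Eln, Igf2bp3, Lpl, Slc16a1, Igfbp4, Map2k3 and Ehd1 were lower at P60. Eln, the elastic fibre protein elastin, ran from 25.2 to 145 CPM, median 71.03 CPM, in the P60 saline libraries, against 754 to 5171 CPM, median 1340.2 CPM, in the P14 libraries. The groups stood far apart (log2 fold change -4.46 ± 0.37 (SE), adjusted p = 7.73e-13). Igf2bp3, an RNA-binding protein of embryonic and proliferating cells, ran from 1.02 to 4.39 CPM, median 2.01 CPM, in the P60 saline libraries, against 12.8 to 42.5 CPM, median 24.5 CPM, in the P14 libraries, with the smallest p of the comparison (log2 fold change -3.63 ± 0.19 (SE), adjusted p = 2.26e-19). Lpl, lipoprotein lipase, ran from 19.6 to 75.4 CPM, median 44.1 CPM, in the P60 saline libraries, against 184 to 541 CPM, median 277 CPM, in the P14 libraries. Slc16a1, the lactate transporter MCT1, had a median of 91.9 CPM at P60 against 514 CPM at P14, and Igfbp4, a binding protein of insulin-like growth factors, a median of 44.8 CPM at P60 against 166 CPM at P14. Map2k3, an activator of p38 kinases, and Ehd1, a regulator of endocytic recycling, had medians of 67.05 and 24.9 CPM at P60 against 239 and 94.7 CPM at P14. In each of these 7 genes the groups were separate, and in F-titled P60 library 5 Eln, Lpl and Slc16a1 stood at 42.8, 38.1 and 49.97 CPM. Igf2bp3, Igfbp4, Slc16a1, Map2k3 and Ehd1 were likewise chosen after their values were seen, as falls of smallest p.

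The largest falls by fold included transcripts known from other cells. Stfa1 and BC100530, stefin A genes of the neutrophil lineage, held 2 and 3 counts over all 12 P60 libraries, against 368 and 371 counts over the 20 P14 libraries. Their pooled levels stood in ratios of 0.00889 (95% exact interval 0.00107 to 0.0323) and 0.0132 (0.00271 to 0.0389), P60 over P14, covering counting error only; the stefin genes are near-identical copies whose reads may be shared. Lhfpl3, Ncan, Gria2, Dcx and Ptprz1, transcripts of oligodendrocyte precursors, astrocytes or neurons, had medians between 0 and 4.87 CPM at P60 against 7.73 to 65.7 CPM at P14. Lama1, a laminin chain of basement membranes, ran from 0 to 5.09 CPM, median 1.77 CPM, in the P60 saline libraries, against 13.96 to 58.8 CPM, median 31.5 CPM, in the P14 libraries.

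Cell division genes fell as a block. All 34 tested genes of mitosis and chromosome segregation fell, where 25.7% of all genes did. Their median log2 fold change was -2.19 against -0.06 over all genes. In 10 of the 34 every P60 library lay below every P14 library, as in 1.28% of all genes. Top2a, the DNA topoisomerase that untangles chromosomes, ran from 7.13 to 32.1 CPM, median 16.03 CPM, in the P60 saline libraries, against 48.1 to 141 CPM, median 85.5 CPM, in the P14 libraries (log2 fold change -2.36 ± 0.20 (SE), adjusted p = 9.03e-13). Prc1, which bundles microtubules of the mitotic midzone, had a median of 4.90 CPM at P60 against 30.7 CPM at P14, and Kif11, the motor that separates spindle poles, a median of 10.2 CPM at P60 against 45.9 CPM at P14. The fall was seen in each sex, with 34 of 34 members called in M-titled and 32 in F-titled libraries. The mean log2 level of the list stood at 5.04 at embryonic day 18 (E18) in the median library, at 5.93 at P4, at 4.21 at P14 and at 2.28 at P60, and the highest P60 library (2.88) was under the lowest P14 library (3.40).

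Genes of DNA replication and nucleotide synthesis fell less, 28 of 36 with a median of -0.60 and none higher. Uhrf1, which brings DNA methyltransferase to replicated DNA, ran from 0 to 4.01 CPM, median 2.18 CPM, in the P60 saline libraries, against 7.54 to 23.1 CPM, median 15.5 CPM, in the P14 libraries, without overlap. Cdt1, a licensing factor of replication origins, and Rrm2, a subunit of ribonucleotide reductase, had log2 fold changes of -2.16 ± 0.25 and -2.34 ± 0.30. Of 21 G1 cyclins, E2F factors and CDK inhibitors, 11 fell and 2 rose. Cdk2, the kinase of S phase entry, had a median of 26.7 CPM at P60 against 69.6 CPM at P14, and Cdkn1a, the CDK inhibitor p21, a median of 119.8 CPM at P60 against 271 CPM at P14, both without overlap, while Rbl2, the pocket protein p130 of resting cells, rose by 0.67 ± 0.11 log2. Without the libraries of over 4% Ttr the replication list had 16 lower members and the mitosis list 34.

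The promoters of the mitotic genes are shown because the genes moved together. A CCAAT box (CCAAT on either strand) lay in the 250 bases before the start of 24 of the 30 mitosis genes with a RefSeq promoter (80%), against 36.4% of 10961 tested genes. The cell cycle homology region (CHR, TTTGAA on either strand) lay in 8 of 30 (26.7%), against 10.4%, and in 8 of 29 interferon genes (27.6%). The E2F core TTCCCGCC was found in 0 of 30, against 3.46%. Of 2797 genes called lower, 37.3% held a CCAAT box, 9.3% a CHR and 3.36% an E2F core, near the shares of all tested genes. Of 30 replication genes, 60% held a CCAAT box, 13.3% a CHR and 13.3% an E2F core. The last 200 bases before the annotated start of 3 members, from RefSeq on GRCm38.p6, which is not the build of the counts, are given 5′ to 3′ with CCAAT and CHR matches in capitals; the 3 were picked with these results known.
Top2a (chr11:99024190-99024389, - strand): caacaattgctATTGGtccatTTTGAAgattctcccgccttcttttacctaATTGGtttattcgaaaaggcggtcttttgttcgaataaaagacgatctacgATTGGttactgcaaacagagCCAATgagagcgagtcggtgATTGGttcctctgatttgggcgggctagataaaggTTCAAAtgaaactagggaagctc
Cenpa (chr5:30666686-30666885, + strand): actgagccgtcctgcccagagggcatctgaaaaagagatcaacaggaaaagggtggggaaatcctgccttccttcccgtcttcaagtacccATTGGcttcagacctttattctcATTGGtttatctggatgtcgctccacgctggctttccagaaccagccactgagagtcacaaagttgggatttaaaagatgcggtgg
Prc1 (chr7:80294251-80294450, + strand): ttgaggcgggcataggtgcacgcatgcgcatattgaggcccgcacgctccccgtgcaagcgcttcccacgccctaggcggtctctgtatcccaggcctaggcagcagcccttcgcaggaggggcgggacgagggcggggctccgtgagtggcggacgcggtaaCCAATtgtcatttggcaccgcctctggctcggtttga
Top2a held 5 CCAAT and 2 CHR matches in this window, Cenpa, the centromeric histone, with a median of 3.11 CPM at P60 against 21.98 CPM at P14, 2 CCAAT matches and Prc1 1 CCAAT match. A match is a string of letters and shows no binding.

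Genes of DNA methylation and its removal fell in 9 of 16 cases and rose in 2. Besides Uhrf1 they included Uhrf2 (a median of 106 CPM at P60 against 164 CPM at P14) and Dnmt3b, a de novo methyltransferase (a median of 4.53 CPM at P60 against 9.44 CPM at P14). Of 15 imprinted growth genes, 3 fell (20%) and 2 rose (13.3%), both under the background. The median moved by -0.49 (-0.38 with the member at 0 throughout P60 at its bound). Meg3, a maternally expressed noncoding RNA, had a median of 2.07 CPM at P60 against 8.91 CPM at P14. Without the libraries of over 4% Ttr the methylation list had 5 lower and 0 higher members, and the imprinted list 4 lower and 0 higher.

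Markers of mature microglia mostly rose. Of 30 homeostatic genes 18 were higher, where 18.5% of all genes were, and 3 lower, with a median of 0.43. In F-titled libraries 15 were higher and 2 lower, with a median of 0.53. In M-titled ones 6 were higher and 2 lower, with a median of 0.27. Of all genes 10.1% were higher in F-titled and 13.3% in M-titled libraries. Over the alternatives 11 to 23 homeostatic genes were higher in the mean of the sexes. Slc2a5, the fructose transporter GLUT5, ran from 277 to 671 CPM, median 435 CPM, in the P60 saline libraries, against 111 to 306 CPM, median 181 CPM, in the P14 libraries (log2 fold change 1.17 ± 0.16 (SE), adjusted p = 5.56e-08), with 11 of 12 P60 libraries above the P14 range. Adora3, an adenosine receptor, and Cst3, the secreted protease inhibitor cystatin C, rose by 1.04 ± 0.17 log2 and 1.00 ± 0.17 log2, and Tmem119 by 1.10 ± 0.20 log2. P2ry12 rose by 0.36 ± 0.15 log2, close to the threshold (adjusted p = 0.0463 in edgeR), and Cx3cr1, the fractalkine receptor, by 0.73 ± 0.18 log2. Sparc, a matrix-associated glycoprotein, ran from 2154 to 4001 CPM, median 3406 CPM, in the P60 saline libraries, against 3662 to 6642 CPM, median 5314 CPM, in the P14 libraries, and fell by 0.70 ± 0.11 log2. Crybb1, a crystallin present in young microglia, fell by 1.01 ± 0.20 log2.

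Lineage transcription factors went both ways, with 3 of 20 rising (15%) and 5 falling (25%), near the background. Irf8, required for microglial development, rose by 0.59 ± 0.15 log2, but without the P60 libraries of the middle date its log2 fold change was 0.31 (adjusted p = 0.167 in edgeR). Sfpi1, the gene of the myeloid master regulator PU.1, had a median of 114 CPM at P60 against 208 CPM at P14 (log2 fold change -0.84 ± 0.18 (SE), adjusted p = 1.40e-04), and Irf5 a median of 259.6 CPM at P60 against 374 CPM at P14. Tfec, an MiT family factor of macrophages, was low at both stages and fell by 2.09 ± 0.30 log2, without overlap. Of 24 genes of TGF-beta signalling 4 rose (16.7%) and 7 fell (29.2%), also near the background. Lrrc33, which presents latent TGF-beta on microglia, fell by 0.78 ± 0.14 log2 and Tgif1, a repressor of TGF-beta targets, fell by 0.73 ± 0.14 log2. Leaving out M-titled P60 library 3 or F-titled P60 library 6 left 2 and 3 falls in the TGF-beta list, and leaving out M-titled P60 library 5 left 2 rises. Leaving out F-titled P60 library 4, 6 or 7 or M-titled P60 library 3 left 3 falls among the transcription factors. Without the libraries of over 4% Ttr 5 transcription factors rose and 3 fell, and 2 TGF-beta genes fell.

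Genes of immature, amoeboid or disease-associated microglia fell in 13 of 28 cases and rose in 4, with a median of -0.22. Igf1, a growth factor of early postnatal microglia, ran from 6.79 to 14.3 CPM, median 11.4 CPM, in the P60 saline libraries, against 12.03 to 41.7 CPM, median 27.1 CPM, in the P14 libraries (log2 fold change -1.29 ± 0.17 (SE), adjusted p = 6.65e-08). Fn1, fibronectin, had a median of 296 CPM at P60 against 1081 CPM at P14, without overlap. Itgax, the CD11c integrin that marks a subset of young and disease-associated microglia, went the other way, with a median of 24.5 CPM at P60 against 9.90 CPM at P14 (log2 fold change 1.23 ± 0.21 (SE), adjusted p = 5.96e-06). Without F-titled P60 library 5, 7 members of this list rose, and without the libraries of over 4% Ttr 2 did.

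**Figure D4:**
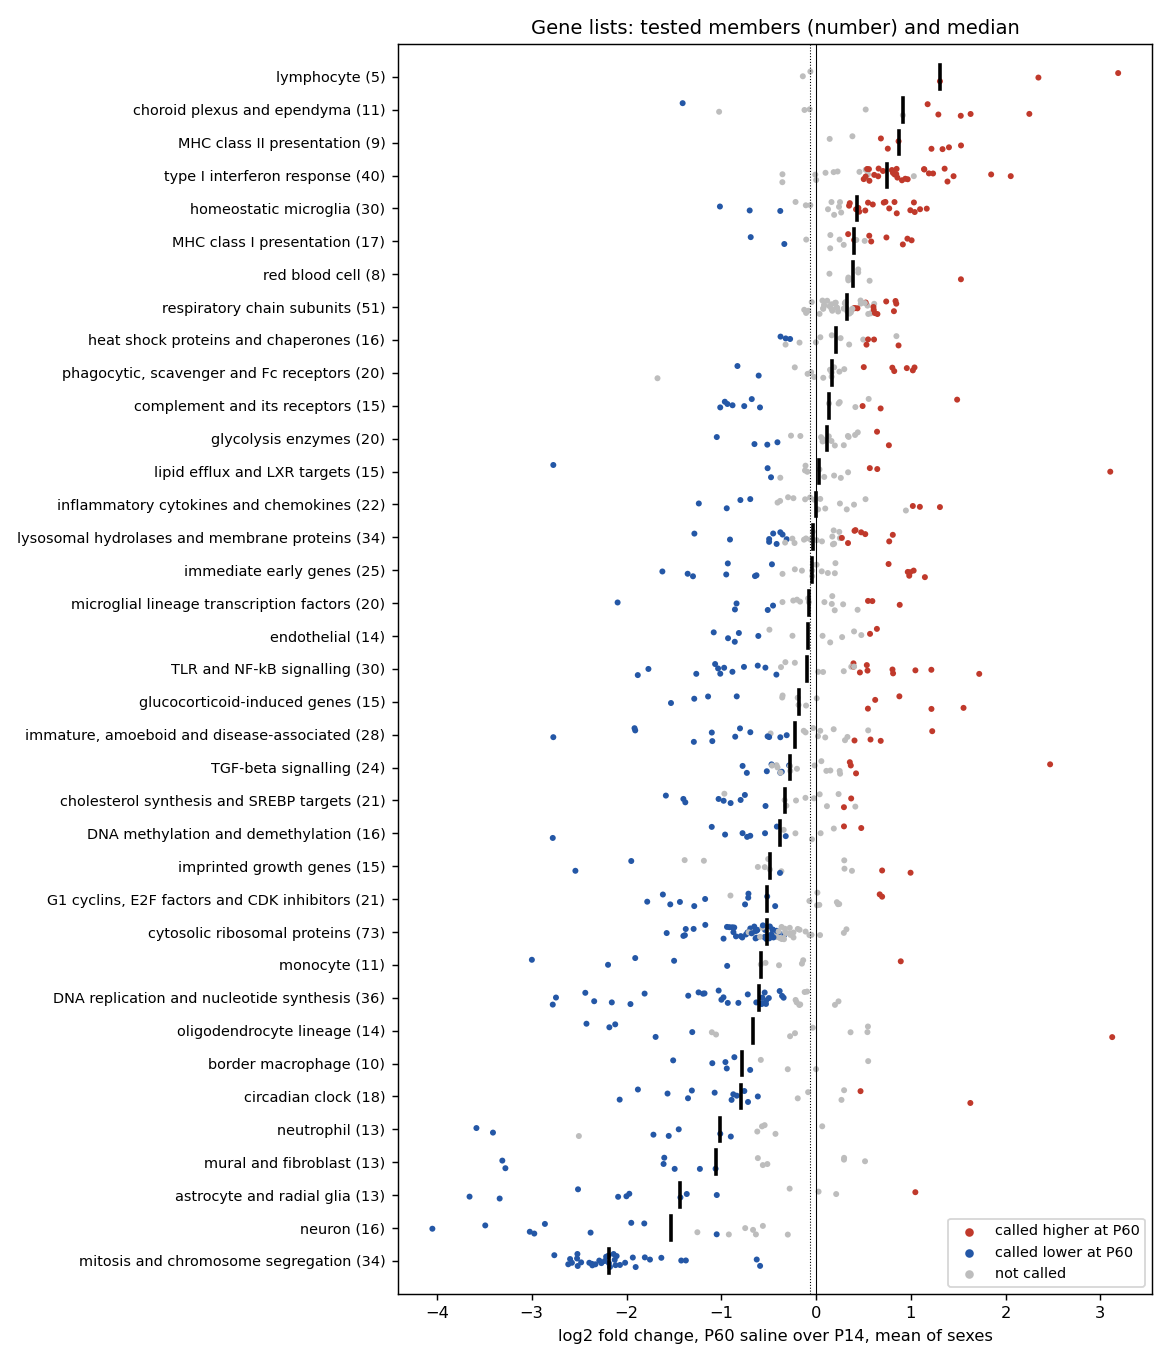
Log2 fold change of P60 saline over P14 (mean of the sexes) for the tested members of each gene list, 1 point a gene, with a black bar at the list's median, a solid line at 0 and a dotted line at the median of all genes. Mitosis genes lie at the bottom with a median of -2.19, and interferon and MHC class II genes near the top with 0.75 and 0.87.

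Most interferon response genes were higher at P60. Of 40 members 28 rose and none fell, with a median of 0.75. Igtp, an interferon-induced GTPase, ran from 40.3 to 89.2 CPM, median 56.8 CPM, in the P60 saline libraries, against 12.2 to 27.6 CPM, median 20.6 CPM, in the P14 libraries (log2 fold change 1.45 ± 0.13 (SE), adjusted p = 2.75e-12). Ifit3, an antiviral tetratricopeptide protein, ran from 7.13 to 47.7 CPM, median 12.4 CPM, in the P60 saline libraries, against 0 to 8.01 CPM, median 3.23 CPM, in the P14 libraries, with 11 of 12 P60 libraries above the P14 range. Ddx58, the RNA sensor RIG-I, had a median of 62.1 CPM at P60 against 36.7 CPM at P14, without overlap. Ifit1 and Rsad2, further antiviral proteins of the response, rose by 1.85 ± 0.29 log2 and 1.36 ± 0.23 log2. In M-titled libraries 11 members rose and 1 fell, and in F-titled ones 26 rose, and no gene passed the edgeR test of a difference between the sexes. At E18 the list's mean log2 level was 3.48 in the median library, at P4 3.87, at P14 3.92 and at P60 4.51. Without the libraries of over 4% Ttr, 23 members rose.

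The core of the interferon-stimulated response element (ISRE, GAAA followed by 2 bases of any kind and GAAA again, on either strand) lay in the 250 bases before the start of 15 of 29 interferon genes with a RefSeq promoter (51.7%), against 2.68% of the tested genes; the list consists of known targets of this pathway. The last 200 bases before the start of 2 members that rose are given, with the match in capitals.
Igtp (chr11:58199356-58199555, + strand): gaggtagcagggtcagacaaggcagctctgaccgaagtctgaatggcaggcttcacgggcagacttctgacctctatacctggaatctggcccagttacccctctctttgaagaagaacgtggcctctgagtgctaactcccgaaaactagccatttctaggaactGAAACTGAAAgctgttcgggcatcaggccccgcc
Ifit3 (chr19:34583329-34583528, + strand): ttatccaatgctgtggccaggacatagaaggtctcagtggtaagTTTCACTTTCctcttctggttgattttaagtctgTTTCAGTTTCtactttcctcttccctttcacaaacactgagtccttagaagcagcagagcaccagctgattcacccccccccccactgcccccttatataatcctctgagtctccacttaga
Igtp held 1 match and Ifit3 held 2.

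Most class II genes were higher too. In the MHC class II list 7 of 9 tested genes rose and none fell (median 0.87). H2-DMb1, a chain of the peptide exchange factor H2-DM, ran from 35.8 to 119 CPM, median 55.6 CPM, in the P60 saline libraries, against 7.81 to 42.6 CPM, median 22.6 CPM, in the P14 libraries. H2-Eb1, a class II beta chain, had a median of 109 CPM at P60 against 43.4 CPM at P14 and overlapped between the stages, with 6 of 12 P60 libraries above the P14 range. Cd74, the invariant chain, rose by 0.68 ± 0.15 log2. Class II genes are also known from dendritic cells, of which no marker list was measured, and from border macrophages. Of 10 tested border macrophage markers none rose and 6 fell (3 without F-titled P60 library 5), with Mrc1, the mannose receptor, at a median of 148 CPM at P60 against 296 CPM at P14. The part of these cells in the class II values was not tested. In the MHC class I list 8 of 17 rose and 2 fell. H2-T23, a nonclassical class I chain, and Psmb9, a subunit of the immunoproteasome, rose by 1.01 ± 0.15 log2 and 0.96 ± 0.20 log2, while H2-Q4 fell by 0.69 ± 0.14 log2; class I genes are close copies and their reads may be shared. Without M-titled P60 library 2, 5 class I genes rose.

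Genes of Toll-like receptor and NF-kB signalling went both ways, 10 of 30 rising and 12 falling. Tlr3, the receptor for double-stranded RNA, ran from 112 to 212 CPM, median 176 CPM, in the P60 saline libraries, against 25.9 to 85.8 CPM, median 45.6 CPM, in the P14 libraries (log2 fold change 1.72 ± 0.14 (SE), adjusted p = 6.83e-13). Tlr4, the receptor for bacterial lipopolysaccharide, had a median of 130.4 CPM at P60 against 71.4 CPM at P14. Relb and Nfkb2, the subunits of the noncanonical NF-kB dimer, fell without overlap, with a median of 26.5 CPM at P60 against 100.4 CPM at P14 for Relb and a median of 51.9 CPM at P60 against 154 CPM at P14 for Nfkb2. Nfkbib, an inhibitor of NF-kB, fell by 1.26 ± 0.16 log2.

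Of 22 cytokine and chemokine genes 3 rose (13.6%) and 4 fell (18.2%), both under the background, with a median of 0.00. Il1b, interleukin 1 beta, ran from 133 to 419.6 CPM, median 322 CPM, in the P60 saline libraries, against 70.7 to 286 CPM, median 131 CPM, in the P14 libraries, and Il6 rose by 1.10 ± 0.28 log2 from low counts. Cxcl1 and Cxcl2, neutrophil-attracting chemokines, had log2 fold changes of -1.24 ± 0.29 and -0.80 ± 0.22, that of Cxcl2 at -0.53 without the P60 libraries of the last date (adjusted p = 0.0814 in edgeR). Without F-titled P60 library 4, F-titled P60 library 7 or M-titled P60 library 3, 5, 7 and 6 cytokine genes rose. Of 15 complement genes, 3 rose and 7 fell (5 rising without F-titled P60 library 7, and 3 falling without the libraries of over 4% Ttr). C3ar1, the receptor of the C3a fragment, had a median of 584 CPM at P60 against 1095 CPM at P14, and C5ar1 a median of 148 CPM at P60 against 204 CPM at P14, while Itgb2, the beta chain of complement receptor 3, rose by 0.68 ± 0.15 log2 (0.38 without the P60 libraries of the middle date, adjusted p = 0.0750 in edgeR). Of 20 phagocytic, scavenger and Fc receptors 6 rose and 2 fell: the Fc receptors Fcgr3 (a median of 1064 CPM at P60 against 572 CPM at P14) and Fcgr2b rose by 0.96 ± 0.13 log2 and 0.81 ± 0.13 log2 and Havcr2, the receptor TIM-3, by 1.04 ± 0.15 log2, while Scarb1, a lipoprotein receptor, fell by 0.83 ± 0.11 log2.

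Of 21 genes of cholesterol synthesis 9 fell (42.9%), 2 rose and 10 did not pass the test, with a median of -0.33. Insig1, the sterol sensor that retains SREBP, ran from 14.8 to 54.97 CPM, median 35.2 CPM, in the P60 saline libraries, against 67.8 to 124 CPM, median 94.4 CPM, in the P14 libraries (log2 fold change -1.40 ± 0.13 (SE), adjusted p = 9.95e-12). Cyp51, a demethylase of the synthesis pathway, had a median of 26.1 CPM at P60 against 70.5 CPM at P14. Lipid efflux and LXR targets had 3 of 15 higher (20%) and 3 lower (20%), near the background. Scd1 and the transporter Abca9 (log2 fold change 0.65 ± 0.18) were among the higher, and Lpl and Apoe (log2 fold change -0.51 ± 0.16) among the lower. Without F-titled P60 library 6, 5 were higher. Without the P60 libraries of the middle date Abca9 and Apoe had log2 fold changes of 0.46 and -0.31 (adjusted p = 0.0930 and 0.179 in edgeR).

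Of 34 lysosomal genes 8 rose (23.5%) and 9 fell (26.5%), near the background, and 4 fell without the libraries of over 4% Ttr. The cathepsins Ctss and Ctsc rose by 0.77 ± 0.14 log2 and 0.81 ± 0.09 log2, while Ctsb fell by 0.49 ± 0.12 log2 and Gla, the enzyme alpha-galactosidase A, fell by 1.28 ± 0.15 log2. Of 20 glycolysis enzymes 2 rose (10%) and 4 fell (20%), both under the background. There were 1 or 2 falls on leaving out any of 8 single P60 libraries, and 4 or 5 rises on leaving out F-titled P60 library 4, 5 or 7. Cytosolic ribosomal protein genes fell in 43 of 73 cases, none rising, with a median of -0.52. In M-titled libraries 31 of the 73 fell, where 16.3% of all genes did, with a median of -0.60. In F-titled ones 8 of the 73 fell, where 17% of all genes did, with a median of -0.32. Rpl4 had a median of 381 CPM at P60 against 550.5 CPM at P14, and Rplp0 a median of 108 CPM at P60 against 222 CPM at P14. Leaving out F-titled P60 library 7 or M-titled P60 library 3 left 27 and 28 falls, and the count ran from 17 without the P60 libraries of the middle date to 64 in limma-voom; ribosomal protein genes have many processed copies to which reads may be split. Respiratory chain subunits rose in 12 of 51 cases (23.5%), none falling, with a median of 0.33. That count was 0, with a median of 0.00, without the libraries of over 4% Ttr, 5 without F-titled P60 library 6, and 20, 21 and 19 without F-titled P60 library 4, 5 or 7. It was 34, with a median of 0.74, without the P60 libraries of the middle date, and 1 without those of the last date. The share of counts in transcripts of at most 1500 bases was 27.9%, 15.5% and 14.4% in F-titled P60 library 6 and M-titled P60 libraries 3 and 4, which are among those of over 4% Ttr, and 8.91% to 12.8% in the other P60 libraries, against 8.24% to 17.97% at P14. Its part in these counts was not tested. Of 16 heat shock proteins and chaperones 4 rose (25%) and 3 fell (18.75%), and leaving out any of 8 single P60 libraries left 1 fall. The endoplasmic reticulum chaperones Hspa5 (a median of 2352 CPM at P60 against 1562 CPM at P14) and Hsp90b1 (a median of 1925 CPM at P60 against 1246 CPM at P14) rose, Hsp90b1 without overlap.

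Most clock genes were lower at P60. Of 18 members 12 fell and 2 rose, with a median of -0.80. Cry1, a cryptochrome of the repressor arm, ran from 5.61 to 20.4 CPM, median 11.4 CPM, in the P60 saline libraries, against 32.4 to 71.9 CPM, median 56.9 CPM, in the P14 libraries (log2 fold change -2.07 ± 0.15 (SE), adjusted p = 7.34e-15). Per3, a period gene of the same arm, had a median of 11.6 CPM at P60 against 33.9 CPM at P14, without overlap. The log2 fold changes of Per1 and Per2 were -0.84 ± 0.21 and -1.31 ± 0.19, that of Dbp, an output factor, -0.89 ± 0.21, and that of Nfil3, its opponent, -1.07 ± 0.14, all passing the test. Arntl and Clock, the activators, had log2 fold changes of 0.27 ± 0.14 and 0.30 ± 0.15 and did not pass the test, and their partner Npas2 rose from low counts by 1.63 ± 0.35 log2. The labels give no time of day. Leaving out F-titled P60 library 4 or 5 gave 4 rises.

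Immediate early genes, which can respond to cell handling, went both ways, 6 of 25 rising (24%) and 8 falling (32%). Without the libraries of over 4% Ttr 5 fell. Jun and Btg2 rose by 1.15 ± 0.18 log2 and 0.99 ± 0.15 log2, with a median of 2160.2 CPM at P60 against 776 CPM at P14 for Jun, while the orphan receptor Nr4a2 had a median of 10.3 CPM at P60 against 39.04 CPM at P14 and Maff, a small Maf factor, a median of 35.3 CPM at P60 against 93.5 CPM at P14. Of 15 glucocorticoid-induced genes 5 rose and 4 fell. Sult1a1, a sulfotransferase, ran from 66.2 to 142 CPM, median 104 CPM, in the P60 saline libraries, against 28.8 to 56.8 CPM, median 44.4 CPM, in the P14 libraries, and Ddit4, an mTOR inhibitor, rose by 0.88 ± 0.19 log2; Mt2, a metallothionein, fell by 1.53 ± 0.22 log2.

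Over the lists of other cell types, neuronal markers fell in 9 of 16 cases with none higher, and the list summed to 16.7 to 62.5 CPM at P60 (median 40.05 CPM) against 24.99 to 349 CPM at P14 (median 107). Nefl was at 0 in every P60 library. Astrocyte and radial glia markers fell in 9 of 13 cases and rose in 1, summing to a median of 298 CPM at P60 against 397 CPM at P14; Slc1a2, the glutamate transporter, had a median of 9.57 CPM at P60 against 88.4 CPM at P14, while Aldh1l1 rose by 1.05 ± 0.33 log2. Oligodendrocyte lineage markers fell in 5 of 14 cases, Pdgfra and Olig2 of precursors with log2 fold changes of -1.69 ± 0.35 and -2.42 ± 0.51, and Ermn of myelinating cells rose by 3.13 ± 0.59 log2. Neither Aldh1l1 nor Ermn passed the test without the libraries of over 4% Ttr. Mural and fibroblast markers fell in 7 of 13 cases. Col3a1, a fibrillar collagen, had a median of 7.83 CPM at P60 against 69.1 CPM at P14. Endothelial markers fell in 5 of 14 cases and rose in 2 (3 and 0 without the libraries of over 4% Ttr), with a list median of -0.09. In F-titled libraries 5 endothelial markers fell and 0 rose, and in M-titled ones 0 fell and 1 rose. Kdr, the VEGF receptor, had a median of 98.8 CPM at P60 against 242 CPM at P14.

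Choroid plexus and ependymal markers rose in 5 of 11 cases and fell in 1. They summed to 295 to 179069 CPM at P60 (median 53412 CPM) against 1595 to 96071 CPM at P14 (median 27331 CPM). Without the libraries of over 4% Ttr 1 rose. In M-titled libraries 5 rose and 1 fell, with a median log2 fold change of 1.51. In F-titled ones 1 rose and 1 fell, with a median of 0.32. Monocyte markers fell in 5 of 11 cases and rose in 1: Cd44, the hyaluronan receptor, ran from 7.14 to 19.3 CPM, median 13.2 CPM, in the P60 saline libraries, against 38.9 to 91.5 CPM, median 61.2 CPM, in the P14 libraries, without overlap, and Ccr2, the chemokine receptor of blood monocytes, had a median of 17.1 CPM at P60 against 10.3 CPM at P14 (log2 fold change 0.89 ± 0.22 (SE), adjusted p = 9.64e-04). Border macrophage markers fell in 6 of 10 cases, or 3 without F-titled P60 library 5. Neutrophil markers fell in 7 of 13 cases, a count that was 0 without the libraries of over 4% Ttr and 2 to 4 on leaving out any of 7 single P60 libraries. The list median was -1.01, and -0.74 without the libraries of over 4% Ttr. In F-titled libraries 5 neutrophil markers fell and in M-titled ones 0, with medians of -1.55 and -0.48. Of the 20 lymphocyte markers 5 could be tested, of which 3 rose: Gzmb and Gzma, granzymes of cytotoxic cells, had medians of 6.04 and 3.86 CPM at P60 against 0.484 and 0.643 CPM at P14, and Ccl5, a chemokine, rose by 1.31 ± 0.37 log2. The lymphocyte list summed to 22.4 to 116 CPM at P60 against 23.95 to 38.8 CPM at P14. Its median log2 fold change was 1.31. Without the libraries of over 4% Ttr it was 0.12, with 7 members tested, 3 higher and 1 lower. Red blood cell markers rose in 1 of 8 cases. The part of these cells in the other results was not tested.

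The step was also set against the one before it, P4 to P14, using 8 P4 libraries (4 of each title sex, untreated). The steps share the P14 libraries, so a gene unusual at P14 moves both in opposite directions. The difference of the log2 changes passed the threshold for 4922 genes (35.5%), 1950 with a more positive change in the later step (14.1%) and 2972 with a more negative one (21.5%). Itgax had a median of 55.4 CPM at P4, 9.90 at P14 and 24.5 at P60 (difference of the log2 changes 3.82 ± 0.37). Xdh, xanthine dehydrogenase, had medians of 14.95, 5.05 and 28.3 CPM at the same stages, and Pde2a, a phosphodiesterase, 57.4, 38.4 and 87.3 CPM. Of these 3 stages the genes were lowest at P14.

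Others were highest at P14. Tnfrsf12a, the TWEAK receptor, had medians of 20.3 CPM at P4, 90.4 at P14 and 18.5 at P60 (difference of the log2 changes -4.34 ± 0.32). Ddit3, the stress factor CHOP, had 43.97, 157 and 71.1 CPM, and Cry1 26.00, 56.9 and 11.4 CPM. By list, mitosis genes had a median log2 change of -1.81 in the earlier step and -2.19 in the later one, and the difference passed for 5 of 34. Homeostatic genes had medians of 1.31 and 0.43, and 19 of 30 rose by less in the later step or fell. Interferon genes had medians of 0.12 and 0.75, with 13 of 40 more positive in the later step. Clock genes had medians of 0.46 and -0.80, with 13 of 18 more negative and 1 more positive in the later step.

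**Figure D5:**
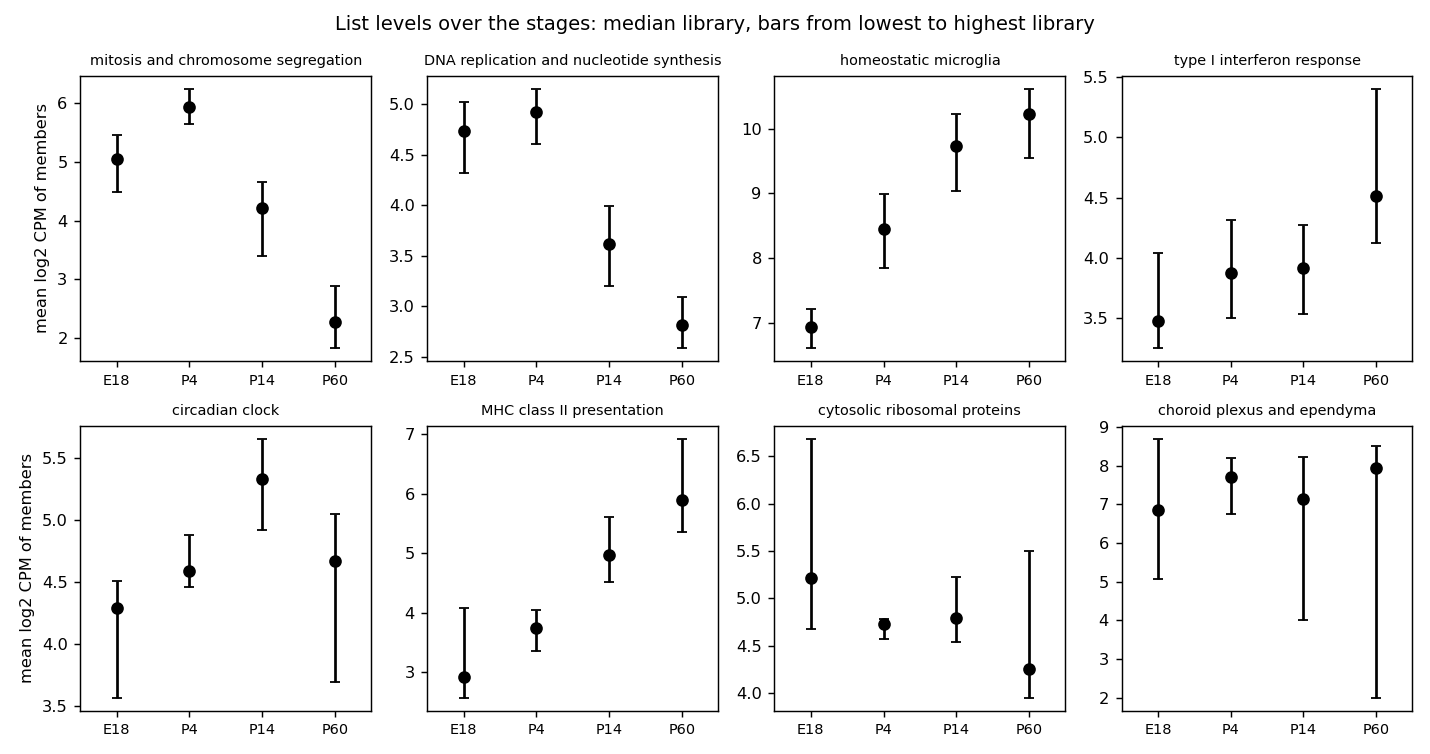
Mean log2 CPM of the tested members of 8 gene lists at E18, P4, P14 and P60 saline, with the point at the median library and bars from the lowest to the highest of 7, 8, 20 and 12 libraries. The mitosis list falls to 2.28 at P60 after 5.93 at P4, the homeostatic list climbs over the stages, and the choroid plexus list has the widest spread.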

How the data were processed

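Per the labels, RNA was extracted with Trizol and sequenced from stranded poly(A) libraries. The authors deposited whole-number counts per transcript, not normalized, and per the submitters' processing notes CASAVA 1.8.2, edgeR and the mm9 genome were used; which aligner and counter made the counts is not given in these sources. Of 28644 transcript rows, 1 was kept for each of 22869 symbols: the row marked in the deposited table for 21988, and the row of highest total for 881. Reads of overlapping genes and of close copies may be split or shared by the counting.

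The 47 libraries of E18, P4, P14 and P60 saline were fitted together by sex in the title and stage, filtered by the edgeR default, scaled by TMM and tested two-sided with the quasi-likelihood method of edgeR 4.0.16, adjusting p by Benjamini-Hochberg over 13853 genes at a threshold of 0.05. The F and M differences were averaged with equal weight. CPM are counts scaled to a common library size after TMM. Errors after ± are standard errors of log2 fold changes, taken as the size of the log2 fold change over the square root of the test's F statistic. The pipeline was tested on simulated data. Total counts of 802016 to 3497454 per library limit the precision for genes of a few CPM.

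The comparison and its 37 gene lists were chosen with earlier results of these data known. Named genes are, at 10 or more CPM on average in either stage, the 10 that rose and the 10 that fell most, up to 3 members a list of smallest p in its main direction and up to 2 in the other, up to 6 rises and 6 falls in the difference of steps, and list members that define a cell type; other named members of lists, and those said to be so, were chosen after their values were seen. The calls of 192 genes were followed over the alternatives, and those whose call was lost on leaving out 1 library are not described. Other named members of lists, such as P2ry12, Tmem119 and Cx3cr1, were not followed gene by gene. A few genes that this rule names are not reported here. Same-numbered P60 and P14 libraries were not paired by the labels. Pairs within a group differed beyond counting noise, at a chi-square of at least 1.96 for each gene compared. Promoters came from RefSeq on GRCm38.p6. Alternatives were DESeq2 1.42.0, limma-voom (limma 3.58.1), other scalings, filters, transcript rows and sex labels, thinned counts, a replicate block, and libraries left out singly, by date or, chosen after seeing the data, by Ttr.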

Additional observations from a re-analysis of the deposited data

Results flagged for a closer look

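In 14 of 82 groups of libraries checked over 21 genes, 1 library stood far from the others of its group by its gap on the log2(CPM + 1) scale (chance gives about 1 in 20, and 5 of the 14 came from 1 library). F-titled P60 library 5, the one with the least Ttr (169 CPM, against 12195 to 134761 CPM in the other F-titled P60 libraries), was the lowest of its group for Scd1 at 1.19 CPM (others 33.2 to 106 CPM), Prlr at 3.57 CPM (others 378 to 1097 CPM), Itgb8 at 1.19 CPM (others 38.0 to 87.7 CPM) and Tmprss11a at 0 CPM (others 8.61 to 33.6 CPM). M-titled P60 library 2 was the lowest of its group for Tmprss11a at 3.51 CPM (others 21.3 to 39.2 CPM) and Pln at 9.13 CPM (others 26.2 to 38.0 CPM). F-titled P60 library 3 stood above its group for Ncan at 8.63 CPM and Stfa1 at 0.863 CPM, and M-titled P60 library 1 for Gria2 at 3.17 CPM and Lhfpl3 at 0.453 CPM; the others of each group were between 0 and 1.10 CPM. For Stfa1 and Lhfpl3 the others were all at 0, so that any count would stand apart. At P14, Fmo2 was highest in F-titled library 8 at 2.40 CPM (others 0 to 0.499 CPM) and M-titled library 6 at 3.87 CPM (others 0 to 1.08 CPM), and Zfp759 lowest in F-titled library 7 at 0 CPM (others 1.12 to 3.46 CPM).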

How the results depend on the processing

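Across 30 alternatives, 5507 of 5736 values of the 192 genes followed kept their direction and their side of the threshold, 229 kept the direction only, and 0 reversed. Of these genes 141 kept their call throughout, 32 lost it without the libraries of over 4% Ttr, 46 on leaving out the libraries of some date and 14 on leaving out a single library. The cause was not tested.

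In the mean of sexes, DESeq2 size factors gave 3007 higher and 3242 lower genes (48.1% of calls higher, against 41.8%), and the 32 libraries of both stages alone gave 3114 and 2981. Without the libraries of over 4% Ttr, 1562 genes were higher in the mean, 446 higher and 672 lower in M-titled libraries, and 1246 had a more positive change in the difference of steps. That setting left only libraries 2 and 5 of the M-titled P60 group. Without the P60 libraries of the last date, 1508 were lower in F-titled libraries, and 987 higher and 1010 lower in M-titled ones; without those of the middle date 1346 were lower in F-titled libraries. Without the first P14 date 1276 were lower in F-titled libraries, and without the last P14 date 1838 had a more negative difference of steps. Limma-voom called 2773 higher in M-titled libraries and 3013 more positive in the difference of steps, DESeq2 2974 more positive there, and thinned counts 1440 lower in M-titled libraries and 1971 more negative in the difference of steps.

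For the difference between the sexes, genes more positive in M-titled libraries numbered 55 by DESeq2, 16 by limma-voom and 3 with thinned counts, and genes more negative 18 and 3 by the first pair of tools. Leaving out single P60 libraries gave 0 to 5 more positive genes.

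Fitted with the replicate number as a block, 2296 genes were higher and 3636 lower, and 1219 had a more positive difference of steps; the numbers did not pair the libraries, with correlations of -0.476 to 0.240 between same-numbered P60 and P14 libraries, 6 of 12 over 0.1 and 1 best match. At these depths differences of genes at a few CPM were often not detectable.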

Other observations

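Gene families read off shared symbol stems, chosen after their values were seen, moved to different degrees. Of 325 tested Zfp genes, which encode zinc finger proteins, 134 were higher at P60 (41.2%, against 18.5% of all genes) and 46 lower (14.2%, against 25.7%), with a median log2 fold change of 0.28. Mitochondrial ribosomal protein genes had 16 of 46 higher and 1 lower in the Mrpl family, and 7 of 28 higher and 1 lower in the Mrps family, where the list of cytosolic ribosomal proteins had none higher. Families were counted in the main fit only, and their counts under the alternatives were not computed. Collagen genes (Col) fell in 21 of 35 cases and rose in 2, with a median of -1.57, and Adamts matrix proteases fell in 13 of 18 with none higher, with a median of -1.91. Sox transcription factors fell in 10 of 17 with none higher.

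The genes called higher had a median transcript length of 2952.5 bases, those called lower 3197 bases and all tested genes 3006 bases.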
